A study of Rattus norvegicus with 18 samples.

Results

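The genes described here make, cut, load and display the peptides that T cells read: the class I and class II molecules of the rat major histocompatibility complex (MHC, called RT1 in the rat), their peptide loading factors, the immunoproteasome and a few partners. They were taken by name from the array annotation: every probe set (the group of short probes that reports on 1 transcript) naming only RT1 genes, or naming B2m, Tap1, Tap2, Tapbp, Cd74, Ciita, Psmb8, Psmb9, Psmb10, Psme1, Psme2, Pdia3, Calr, Canx, Ctss, Cd80, Cd86, Cd1d1 or Nlrc5. This gave 64 of 31042 probe sets, which stand for 43 genes or gene combinations. Of the 64, 28 belonged to class I heavy chains and B2m, 10 to peptide loading and folding, 6 to the immunoproteasome and its activator, 15 to class II, and 5 to other partners (Nlrc5, Cd1d1, Cd80 and Cd86).

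Epithelia and fibroblasts were taken from the tongues of male Sprague Dawley rats, an outbred stock, and RNA of 18 samples was measured on 1 array each. The 6 groups of 3 samples were SCC (squamous cell carcinoma) epithelia, dysplasia epithelia and normal epithelia, and SCC fibroblasts, dysplasia fibroblasts and normal fibroblasts. Rats with dysplasia or SCC drank water with 0.002% 4NQO (4-nitroquinoline 1-oxide, a carcinogen) and were killed between weeks 14 and 22 when lesions were visible, and normal rats drank distilled water only. Each sample joined tissue of 3 rats. The epithelium was the layer lifted off with dispase, and the fibroblasts were the cells of the collagenase-digested connective tissue that had stuck to plastic after a brief culture. The labels do not say whether samples of a group share animals, so p-values measure the spread between these samples, which may be technical.

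Class I molecules, a heavy chain paired with B2m (beta-2 microglobulin), sit on nearly all nucleated cells and show peptides cut in the cytosol by the proteasome; interferon gamma swaps 3 of its catalytic subunits for Psmb8, Psmb9 and Psmb10, and Tap1 and Tap2 pump the peptides into the endoplasmic reticulum. Class II molecules, an alpha and a beta chain guided by the invariant chain Cd74, show peptides of engulfed protein and are made mainly by dendritic cells, macrophages and B cells, and by other cells under interferon gamma. Ciita is the master switch of class II genes and Nlrc5 its counterpart for class I.

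Values are log2 array signals, so a difference of 1 is a change of 2-fold, and a call means an adjusted p under 0.05 in limma over all 31042 probe sets. The labelled layers were checked against marker genes. The mean log2 signal of 12 epithelial genes was 13.10 to 13.24 in the 9 epithelial samples and 10.53 to 12.77 in the 9 fibroblast samples, so fibroblast samples also carried keratinocyte transcripts. The mean of 11 fibroblast genes was 5.69 to 11.50 in epithelia and 11.56 to 12.74 in fibroblasts. In SCC epithelia it was 9.65, 11.50 and 7.56 in samples 1, 2 and 3. The mean of 14 macrophage and monocyte genes was 5.97 to 9.11 in epithelia and 8.36 to 11.29 in fibroblasts. The third sample of each fibroblast group stood apart: its epithelial list lay at 10.53, 12.003 and 11.88 in normal, dysplasia and SCC, against 12.57 to 12.77 in the other 6 fibroblast samples. Log2 signals of samples of the same group correlated at 0.961 to 0.995 over all probe sets.

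In diseased epithelia more of the 64 probe sets were called higher than lower. In dysplasia against normal epithelia 15 of the 64 probe sets rose and 1 fell, where 7.0% of all probe sets tested rose and 7.54% fell. In SCC against normal epithelia 31 rose and 0 fell, where 12.6% of all probe sets rose and 17.3% fell. The median change of the 64 was 0.38 in dysplasia and 0.66 in SCC, beside medians of -0.06 and -0.09 over all probe sets tested. Between SCC and dysplasia epithelia 0 passed in either direction in limma, where 0.0129% of all probe sets rose and 0.0129% fell. At an unadjusted p under 0.05 there were 12, and under a fold of at least 2 with that p there were 2. The shares of all probe sets at these looser thresholds were not counted, here or below. The means of 43 of the 64 probe sets lay in the order normal, dysplasia, SCC, lowest to highest, and 2 in the reverse order. The share of all probe sets in that order was not counted, and the rises against normal already favour it.

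**Figure D1:**
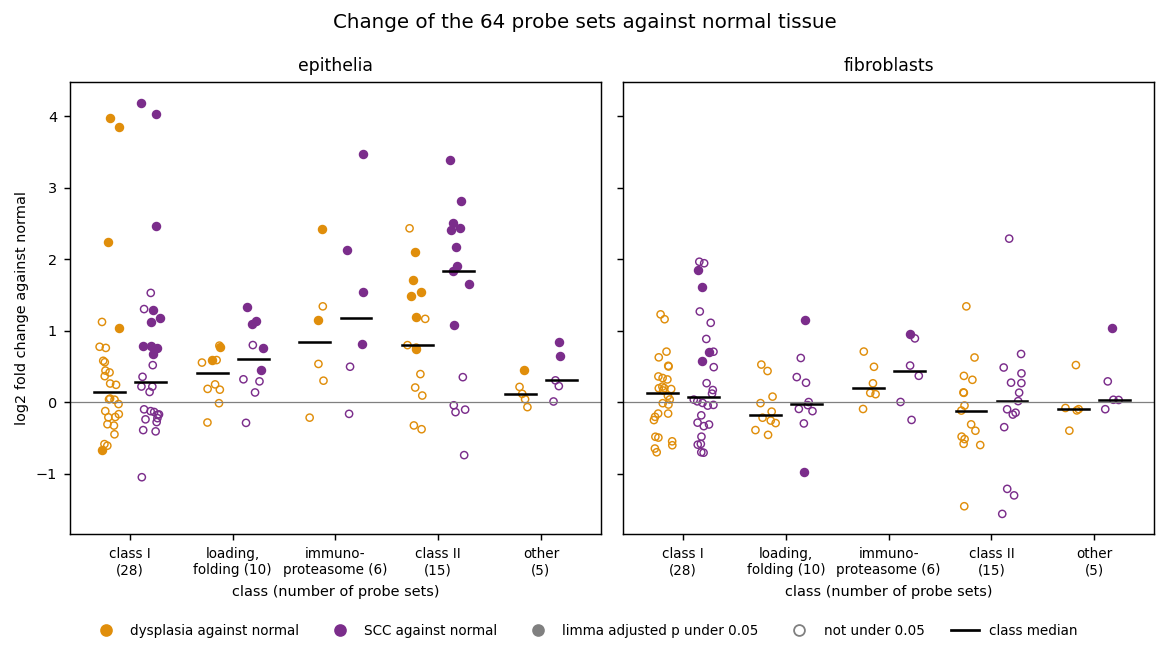
Log2 fold change of each of the 64 probe sets in dysplasia and in SCC against normal tissue, by class, in epithelia (left) and fibroblasts (right). Filled points passed a limma adjusted p under 0.05 and black bars are class medians; the class II median in epithelia reached 1.83 in SCC, and that in fibroblasts 0.02.

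Taken by class, class II had the highest median change in SCC epithelia of the 5 classes, 1.83. Of its 15 probe sets 10 were higher and 0 lower. In dysplasia epithelia 6 of 15 were higher, with a median of 0.80. Each of these 6 calls was lost in at least 3 of the 9 fits that left out 1 array. The immunoproteasome and its activator had medians of 0.84 in dysplasia and 1.18 in SCC epithelia, with 2 and 4 of 6 probe sets higher. Peptide loading and folding had medians of 0.40 and 0.61, with 2 and 5 of 10 higher. Class I heavy chains and B2m had medians of 0.15 and 0.29, with 4 and 10 of 28 higher, and 1 of 28 lower in dysplasia. The 4 higher in dysplasia came from RT1-N3 and from RT1-CE5 alone, the latter with 1370972_x_at, 1371209_at and 1388255_x_at. Beside the counts of each class, 12.6% of all probe sets rose in SCC epithelia and a smaller share in dysplasia, as given above. Of the 5 other probe sets 1 was higher in dysplasia and 2 in SCC epithelia. With 1 probe set per gene or gene combination, the brightest, 11 of 43 rose and 1 fell in dysplasia and 22 rose and 0 fell in SCC.

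The calls in dysplasia leaned on single arrays more than those in SCC. Of the 16 calls in dysplasia against normal epithelia, 4 held with any 1 of the arrays left out. These 4 were Psmb8, Psmb10 and RT1-CE5 with 1371209_at and 1388255_x_at. Of the 31 calls in SCC against normal epithelia, 25 held. Without dysplasia epithelia sample 3, 4 of the 64 passed in dysplasia. The count was 7 without normal epithelia sample 1 and 8 without normal epithelia sample 2. Without dysplasia epithelia sample 1 it was 9, and without dysplasia epithelia sample 2 it was 8. With the sample number as a replicate block 9 passed in dysplasia against normal epithelia. The share of all probe sets called was not counted in these fits, so the counts do not set these genes apart from the rest.

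Cd74, the invariant chain that guides class II molecules to the endosome, was at 9.41, 7.46 and 9.55 in normal epithelia, 11.18, 10.70 and 10.84 in dysplasia epithelia, and 11.51, 12.25 and 11.09 in SCC epithelia. The 3 normal samples lay below all 6 diseased ones, with normal sample 2 the lowest by far. Cd74 rose by 2.11 ± 0.52 (SE, limma adjusted p = 0.0306) in dysplasia and by 2.82 ± 0.52 (adjusted p = 0.00472) in SCC, each against normal epithelia. The rise in dysplasia no longer passed with the replicate block (adjusted p = 0.0551) or without any 1 of the 3 dysplasia samples (adjusted p = 0.063 to 0.093).

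RT1-Db1, a beta chain of the class II D molecule, stood at 7.53, 6.48 and 7.60 in normal epithelia, 8.93, 8.48 and 8.67 in dysplasia epithelia and 9.73, 10.26 and 8.92 in SCC epithelia with its brighter probe set (1370383_s_at). The normal samples did not overlap the others, and SCC sample 3 lay within the range of dysplasia. Its change was 1.49 ± 0.38 in dysplasia (adjusted p = 0.0324) and 2.43 ± 0.38 in SCC (adjusted p = 0.00215). The other RT1-Db1 probe set (1370382_at) was at 7.56 to 8.31 in all 9 epithelial samples and was not called in either comparison. RT1-Da, the alpha chain of the same molecule, rose by 1.70 ± 0.47 in dysplasia (adjusted p = 0.0433) and by 2.50 ± 0.47 in SCC (adjusted p = 0.005). The dysplasia calls were lost in 5 (RT1-Db1) and 6 (RT1-Da) of the fits without 1 array, and the SCC calls in 0.

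The class II B molecule was reported on by 6 probe sets. For its alpha chain RT1-Ba, probe set 1381593_x_at was at 8.74, 7.88 and 8.92 in normal epithelia, 10.54, 9.75 and 9.88 in dysplasia epithelia and 10.51, 11.72 and 10.55 in SCC epithelia. Probe set 1392334_at followed it, with 8.92, 8.53 and 9.08, then 10.46, 9.76 and 9.81, then 10.30, 11.57 and 10.39 in the same order of stages and samples. Probe set 1370822_at was at 7.55, 6.78 and 7.68 in normal, 8.67, 8.35 and 8.58 in dysplasia and 9.38, 9.58 and 8.54 in SCC epithelia. In each of these 3 the normal samples lay below all others. In SCC against normal epithelia the 3 rose by 2.42, 1.91 and 1.83, with adjusted p of 0.00256, 0.00404 and 0.0029. The fourth RT1-Ba probe set, 1377334_at, went the other way, at 5.45 to 6.29 in SCC epithelia and 6.44 to 7.0 in normal epithelia, a change of -0.74 that was not called. In fibroblasts it was at 5.56 in normal sample 3 and at 9.43 to 12.27 in the other samples. The beta chain RT1-Bb rose by 3.38 ± 0.71 in SCC (adjusted p = 0.00814) with probe set 1371033_at, while 1371065_at was at 7.32 to 7.96 in SCC and 7.61 to 7.79 in normal epithelia.

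**Figure D2:**
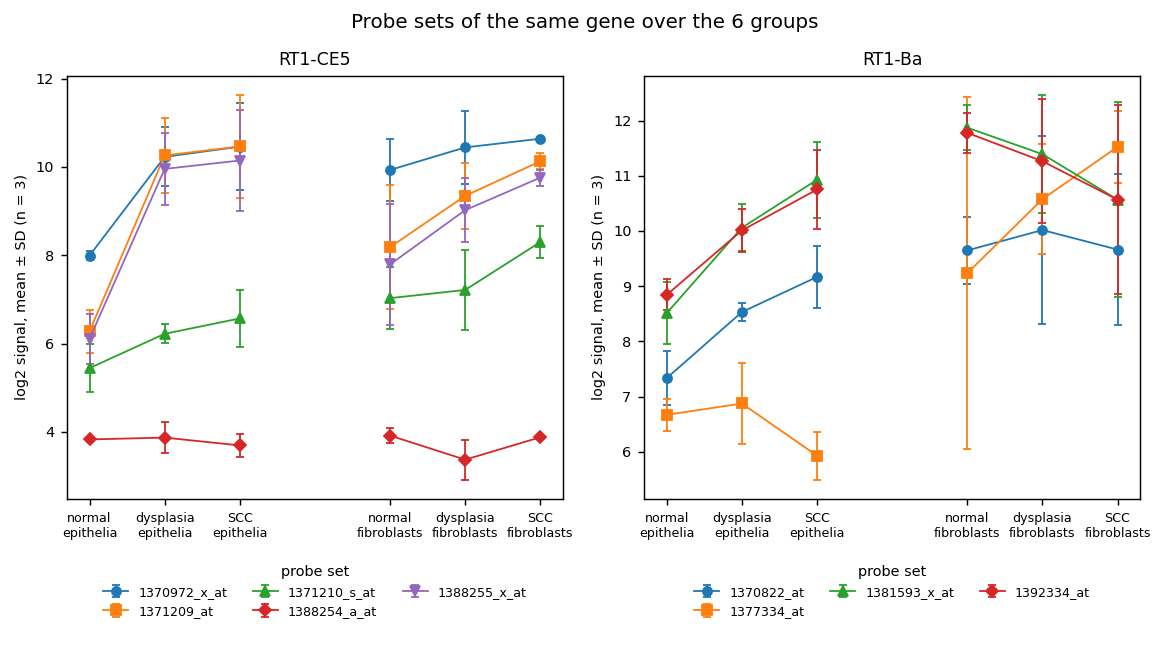
Mean log2 signal ± SD of the 5 RT1-CE5 probe sets (left) and the 4 RT1-Ba probe sets (right) over the 6 groups of 3 samples. Within RT1-CE5, probe set 1388254_a_at stayed near the bottom of the scale in every group, and within RT1-Ba, 1377334_at alone was lower in SCC than in normal epithelia.

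RT1-DMa and RT1-DMb form the molecule that swaps the Cd74 remnant for a peptide, and cathepsin S (Ctss) is the protease that cuts Cd74 down. In SCC against normal epithelia Ctss rose by 2.17 ± 0.42 (adjusted p = 0.00575), RT1-DMb by 1.66 ± 0.31 (adjusted p = 0.00464) and RT1-DMa by 1.08 ± 0.21 (adjusted p = 0.00566). For each of the 3 the SCC and normal samples did not overlap. Ciita, read by 2 dim probe sets, was at 5.72, 5.63 and 5.63 in normal, 5.80, 5.64 and 5.82 in dysplasia and 5.95, 6.6 and 5.48 in SCC epithelia with 1379381_at. Its SCC samples lay on both sides of the others, and its change of 0.35 (95% interval -0.19 to 0.89, adjusted p = 0.29) was not called.

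**Figure D3:**
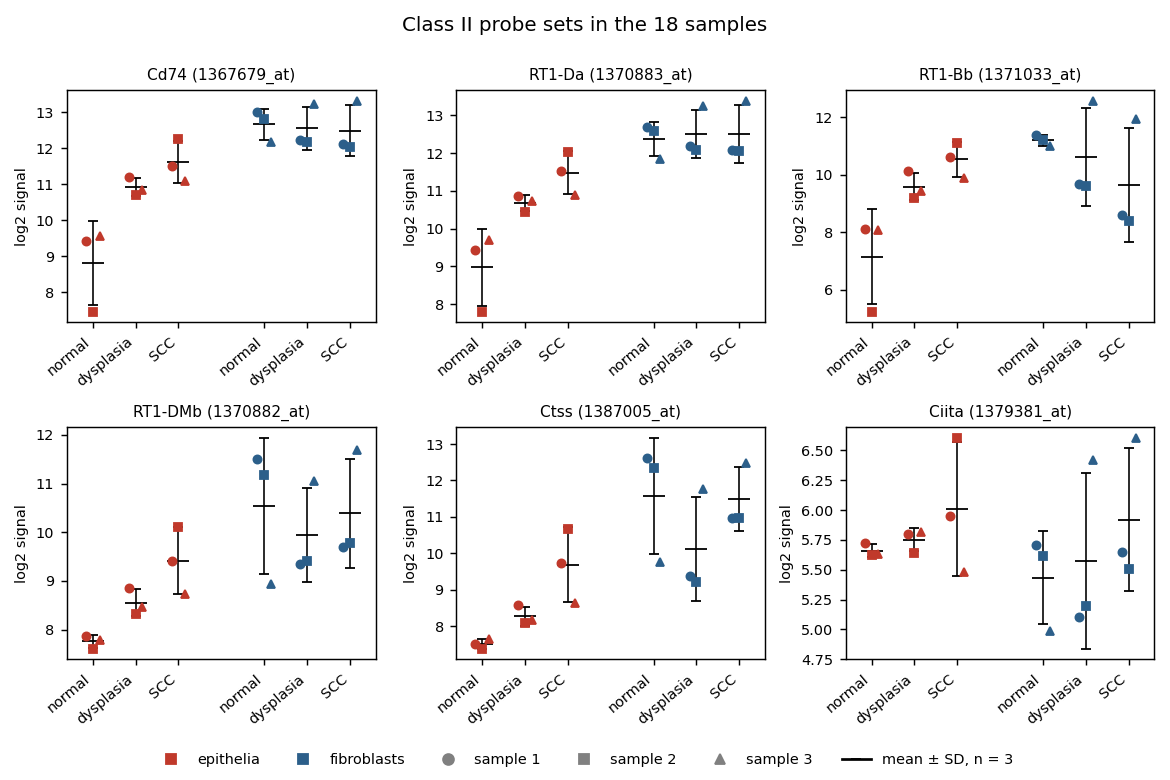
Log2 signal of 6 class II probe sets in each of the 18 samples, with the mean ± SD of each group of 3; marker shapes give the sample number. Cd74, RT1-Da, RT1-Bb and RT1-DMb were lower in every normal epithelial sample than in every diseased one, and in dysplasia and SCC fibroblasts sample 3 was the highest of each group for all 6.

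The rat promoters of the 2 class II D chains hold the paired X and Y boxes that class II regulators bind, and are shown because these genes were among those that rose together. Promoters were read from RefSeq (build GRCr8), 250 bases before to 50 after the start of the gene, for 37 of the 44 genes that the probe sets name, and both strands were searched for AGCAAC followed by ATTGG 20 to 40 bases later on the same strand. RT1-Da lies on the plus strand, shown at chr20:4515320-4515382, and RT1-Db1 on the minus strand, shown at chr20:4560226-4560287, both 5′ to 3′ with the boxes in capitals.
RT1-Da: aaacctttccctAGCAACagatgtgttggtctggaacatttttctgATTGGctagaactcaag
RT1-Db1: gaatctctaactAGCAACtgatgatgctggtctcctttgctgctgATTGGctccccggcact
The boxes were 28 bases apart in RT1-Da and 27 bases apart in RT1-Db1. These letters occurred in 2 of the 37 windows (5.41%) and in 0.335% of the 27457 promoter windows of all genes. A match describes letters, not binding. Windows without it, such as those of Cd74, RT1-Ba and RT1-Bb, say only that these exact letters are not there.

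Of the immunoproteasome, Psmb8, which replaces the chymotrypsin-like subunit of the proteasome, was at 5.33, 5.50 and 5.34 in normal epithelia, 7.22, 8.38 and 7.85 in dysplasia epithelia and 8.86, 9.59 and 8.12 in SCC epithelia. Normal samples lay far below the rest, and dysplasia and SCC overlapped. The rise was 2.43 ± 0.37 in dysplasia (5.37-fold, adjusted p = 0.00562) and 3.47 ± 0.37 in SCC (11.1-fold, adjusted p = 0.000447), and both calls held with any 1 array left out.

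Psmb10, which replaces the trypsin-like subunit, was at 6.75, 6.82 and 7.24 in normal, 8.02, 7.91 and 8.31 in dysplasia and 8.71, 8.61 and 8.10 in SCC epithelia. Psmb9, which replaces the caspase-like subunit, was at 7.76, 6.51 and 8.22 in normal, 8.59, 8.93 and 8.98 in dysplasia and 9.95, 10.06 and 8.87 in SCC epithelia. For both genes no normal sample reached a diseased one. Psmb10 rose by 1.14 ± 0.20 in dysplasia (adjusted p = 0.00874) and 1.54 ± 0.20 in SCC (adjusted p = 0.00106), and Psmb9 by 2.13 ± 0.44 in SCC only as far as calls go (adjusted p = 0.00774).

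Psme1 and Psme2 form the PA28 cap that opens the proteasome. Psme1 was at 10.74, 10.01 and 10.99 in normal, 11.12, 11.02 and 11.21 in dysplasia and 11.56, 11.54 and 11.10 in SCC epithelia with its bright probe set, and rose by 0.82 ± 0.24 in SCC (adjusted p = 0.0314). Without any 1 of normal samples 1 and 2 or SCC samples 1 and 2, that call was lost (adjusted p = 0.0546 to 0.0816). Psme2 was at 9.86, 9.48 and 10.10 in normal, 9.95, 10.12 and 10.28 in dysplasia and 10.44, 10.50 and 9.99 in SCC epithelia, groups that overlapped and were not called. The 13 genes of the constitutive proteasome core were the comparison: 0 passed in dysplasia and 5 rose in SCC epithelia. Those 5 of 13 were a larger share than the 12.6% of all probe sets that rose in SCC epithelia. Their rises were at most 0.53 (Psmb3), and the list median was 0.19.

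**Figure D4:**
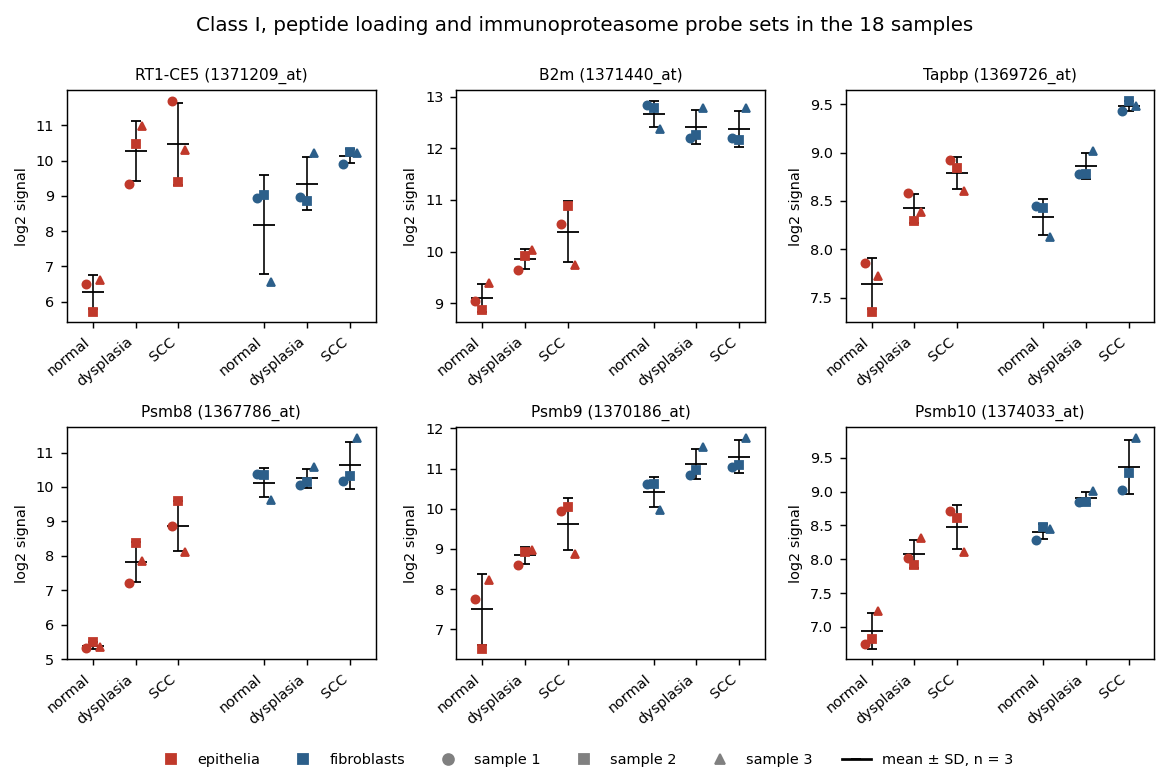
Log2 signal of RT1-CE5, B2m, Tapbp, Psmb8, Psmb9 and Psmb10 (1 probe set each, that with the largest change in SCC epithelia) in each of the 18 samples, with the mean ± SD of each group of 3. Psmb8 lay between 5.33 and 5.50 in normal epithelia and at 7.22 or above in every other sample.

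Tapbp (tapasin), which holds class I molecules at the peptide pump, was at 7.86, 7.36 and 7.72 in normal, 8.59, 8.30 and 8.38 in dysplasia and 8.92, 8.84 and 8.61 in SCC epithelia. The 3 stages did not overlap. It rose by 0.78 ± 0.16 in dysplasia (adjusted p = 0.0151) and 1.14 ± 0.16 in SCC (adjusted p = 0.00133).

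Tap2 was at 6.22, 5.83 and 6.38 in normal, 6.64, 7.08 and 7.08 in dysplasia and 7.60, 7.83 and 6.99 in SCC epithelia, and rose by 1.33 ± 0.24 in SCC (adjusted p = 0.00418). Tap1, its partner in the pump, was at 8.12, 6.68 and 8.41 in normal, 8.14, 8.36 and 8.38 in dysplasia and 8.79, 8.70 and 8.13 in SCC epithelia with its brighter probe set. Those ranges overlapped, and the change of 0.80 in SCC (95% interval -0.10 to 1.70, adjusted p = 0.155) was not called. A second, dimmer Tap1 probe set was lower by 0.29, also not called.

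Canx (calnexin), a chaperone of new heavy chains, was at 8.84, 8.80 and 8.77 in normal, 9.48, 9.36 and 9.32 in dysplasia and 9.91, 9.48 and 9.30 in SCC epithelia with probe set 1371687_at. With 1388442_at it was at 11.11, 10.99 and 10.96, then 11.47, 11.09 and 11.26, then 11.60, 11.46 and 11.35 in the same order. In SCC these rose by 0.76 and 0.45 (adjusted p = 0.00667 and 0.0283), and the first by 0.59 in dysplasia (adjusted p = 0.0355). The rise of 0.45 was lost without any 1 of 5 samples, and that in dysplasia without any 1 of 6. The brightest Canx probe set, 1371686_at, was at 11.67 to 11.91 in SCC and 11.45 to 11.53 in normal epithelia, a change of 0.29 that was not called (adjusted p = 0.0619). Pdia3, a disulfide isomerase of the loading complex, was at 6.45, 6.58 and 6.63 in normal, 6.97, 7.24 and 7.22 in dysplasia and 7.66, 8.05 and 7.26 in SCC epithelia with 1392920_at, and rose by 1.10 ± 0.19 in SCC (adjusted p = 0.00334). Its stages did not overlap with that probe set. The brighter Pdia3 probe set, 1398788_at, was at 12.12 to 12.46 in SCC and 11.95 to 12.08 in normal epithelia, a change of 0.32 that was not called (adjusted p = 0.0688). Calr (calreticulin), another chaperone, changed by 0.14 in SCC (adjusted p = 0.465).

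Interferon-stimulated response elements are the sites through which interferon regulatory factors act, and their core was searched as GAAANNGAA on both strands of the same windows. It occurred in 10 of 37 windows of these genes (27.0%) and in 9.50% of all 27457. Shown are the 9 genes whose matches end before the start used for the window, whether or not the gene was called. In Tapbp, Psme2 and Ctss the stretch lies within the full span that RefSeq gives the gene, so that another transcript starts farther out. Each is 5′ to 3′ on the strand of its gene with the matches in capitals, and TTC at the left end marks a match on the opposite strand.
B2m: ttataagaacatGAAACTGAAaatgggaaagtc
RT1-N3: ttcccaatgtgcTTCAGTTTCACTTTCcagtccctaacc
Tap1: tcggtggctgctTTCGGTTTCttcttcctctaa
Tap2: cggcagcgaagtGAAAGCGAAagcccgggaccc
Tapbp: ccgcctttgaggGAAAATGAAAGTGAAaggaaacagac
Psmb10: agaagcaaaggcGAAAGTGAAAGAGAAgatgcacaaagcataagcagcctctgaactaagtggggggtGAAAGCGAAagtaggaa
Psme2: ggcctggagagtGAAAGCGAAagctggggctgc
Ctss: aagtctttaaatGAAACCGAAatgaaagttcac
RT1-S3: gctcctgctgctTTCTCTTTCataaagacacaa
In GRCr8 they lie at chr3:129549168-129549200 (B2m, plus strand), chr20:2666265-2666303 (RT1-N3, plus), chr20:4668643-4668675 (Tap1, minus), chr20:4652317-4652349 (Tap2, minus), chr20:4967878-4967915 (Tapbp, minus), chr19:50743293-50743377 (Psmb10, minus), chr15:33052784-33052816 (Psme2, minus), chr2:185775348-185775380 (Ctss, plus) and chr20:2675405-2675437 (RT1-S3, plus). Psmb10 held 3 matches, and Tapbp and RT1-N3 held 2 overlapping matches each. The other window with the core was that of Psmb8, where it spans the start of the gene. Tap1 and Psmb9 point away from each other with 457 bases between their starts, and the Tap1 match lies 112 bases from the Tap1 start and 337 from the Psmb9 start. A STAT site, TTCNNNGAA, occurred in 3 of the 37 windows (8.11%) and in 8.68% of all, and overlapped none of the core matches.

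Among class I genes, RT1-CE5 changed the most. With probe set 1371209_at it was at 6.49, 5.72 and 6.62 in normal epithelia, 9.33, 10.46 and 10.99 in dysplasia epithelia and 11.70, 9.38 and 10.31 in SCC epithelia. Probe set 1388255_x_at had 6.29, 5.48 and 6.56 in normal, 9.06, 10.14 and 10.66 in dysplasia and 11.33, 9.07 and 10.03 in SCC epithelia. Probe set 1370972_x_at had 7.97, 7.90 and 8.10, then 9.54, 10.28 and 10.87, then 11.58, 9.71 and 10.09. In all 3 the diseased samples lay well above the normal ones, dysplasia and SCC overlapped, and SCC sample 2, the sample with the highest class II level, was the lowest SCC sample. Changes in dysplasia against normal epithelia were 3.98 ± 0.59, 3.85 ± 0.59 and 2.24 ± 0.47 (15.8-, 14.4- and 4.71-fold, adjusted p = 0.00505, 0.00556 and 0.0173). In SCC they were 4.19, 4.04 and 2.47 (adjusted p = 0.00148, 0.0017 and 0.00543).

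The other RT1-CE5 probe sets gave other values. Probe set 1371210_s_at rose by 1.12 ± 0.35 in SCC (adjusted p = 0.038) and not by a call in dysplasia, and 1388254_a_at was at 2.92 to 4.10 in all 18 samples. RT1 class I genes are near-identical copies that vary in sequence and number between rat haplotypes, and 6 of the 37 RT1 probe sets name several genes. Which copy a probe set reads, and whether an allele or a level differs between samples, cannot be told apart on these arrays. For class II RT1 probe sets, too, allele and level cannot be told apart.

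B2m, the light chain that all class I molecules share, was at 9.05, 8.87 and 9.39 in normal, 9.65, 9.91 and 10.03 in dysplasia and 10.53, 10.89 and 9.75 in SCC epithelia with probe set 1371440_at. No normal sample reached a diseased one. It rose by 1.29 ± 0.27 in SCC (2.44-fold, adjusted p = 0.00843), and its brighter probe set 1367595_s_at by 0.78 ± 0.20 (adjusted p = 0.0201). The call of the brighter probe set was lost without any 1 of normal samples 1 and 2 or SCC samples 1 and 2 (adjusted p = 0.0505 to 0.0682).

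RT1-N3, a non-classical class I gene, was at 6.40, 5.80 and 6.28 in normal, 7.28, 7.14 and 7.18 in dysplasia and 7.03, 7.77 and 7.24 in SCC epithelia, and rose by 1.04 ± 0.21 in dysplasia (adjusted p = 0.0157) and 1.19 ± 0.21 in SCC (adjusted p = 0.00419). RT1-CE10, RT1-CE12 and RT1-CE16 were each higher in SCC, by 0.79, 0.76 and 0.68. RT1-N2 was the only probe set of the 64 called lower in dysplasia, by 0.66, and lay at 4.84 to 5.30 in dysplasia and 5.67 to 5.91 in normal epithelia. The 4 probe sets of RT1-S3, another non-classical gene, moved by -0.41 to -0.12 in SCC and were not called. RT1-T24-3 was at 7.10, 9.83 and 6.55 in SCC and 6.21 to 7.003 in normal epithelia, so that 1 SCC sample alone was high.

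Nlrc5 was dim, at 5.63, 5.27 and 5.92 in normal, 5.14, 6.04 and 5.77 in dysplasia and 6.21, 6.11 and 5.43 in SCC epithelia, and these overlapped (change in SCC 0.31, 95% interval -0.34 to 0.95). Cd1d1, which shows lipids to NKT cells, was at 5.71, 5.61 and 5.70 in normal, 6.07, 6.06 and 6.26 in dysplasia and 6.40, 6.63 and 6.52 in SCC epithelia, with no overlap between stages. Cd1d1 rose by 0.46 ± 0.11 in dysplasia (adjusted p = 0.0268) and 0.85 ± 0.11 in SCC (adjusted p = 0.00101). Cd80 and Cd86 are costimulators on antigen-presenting cells. Cd86 was at 5.68, 5.99 and 5.52 in normal, 5.77, 5.96 and 6.10 in dysplasia and 6.46, 6.59 and 6.06 in SCC epithelia with 1377943_at, a rise of 0.64 in SCC (adjusted p = 0.0254) that was lost without any 1 of 4 samples. Its other probe set lay at 5.16 to 5.86 in the 9 epithelial samples, and Cd80 at 4.53 to 5.16.

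Some transcripts of leukocytes and of connective tissue were higher in the same epithelia. Ptprc (CD45), which all leukocytes carry, was at 4.30, 3.50 and 4.15 in normal, 6.55, 5.53 and 6.06 in dysplasia and 7.32, 8.72 and 6.18 in SCC epithelia, and rose by 2.06 ± 0.56 in dysplasia (adjusted p = 0.0412) and 3.42 ± 0.56 in SCC (adjusted p = 0.00272). Of 14 macrophage and monocyte genes, 2 rose in dysplasia and 9 in SCC, and the list mean was 5.97 to 6.09 in normal, 6.32 to 7.003 in dysplasia and 6.94 to 9.11 in SCC epithelia. The list of 11 fibroblast genes averaged 6.42 in normal, 7.30 in dysplasia and 9.57 in SCC epithelia, and 4 of its genes rose in SCC (list median 3.44) and 0 in dysplasia. Of 6 endothelial genes 0 were called, with a list median of 1.75 in SCC. Aif1 rose by 4.58 and Tyrobp by 4.13 in SCC, while Cd68 changed by -0.22 and was not called. SCC epithelia sample 2 had the highest and sample 3 the lowest macrophage, endothelial and fibroblast list means of the 3 SCC samples. Of 15 class II probe sets 13 were highest in sample 2 and 13 lowest in sample 3. Over all 64, 40 were highest in sample 2 and 51 lowest in sample 3, so the order was not particular to class II. The share of all probe sets with that order was not counted. Among 7 genes of dendritic and Langerhans cells 2 rose and 1 fell in SCC, among 13 of T and NK cells 3 rose and 3 fell, and among 5 of B cells 0 were called. Beside these list counts, 12.6% of all probe sets rose and 17.3% fell in SCC epithelia, with smaller shares in dysplasia. The list counts were not tested against these shares. The part of these cells in the rises was not tested, and in RNA of a whole tissue layer fewer cells of a type and less RNA per cell cannot be told apart.

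**Figure D5:**
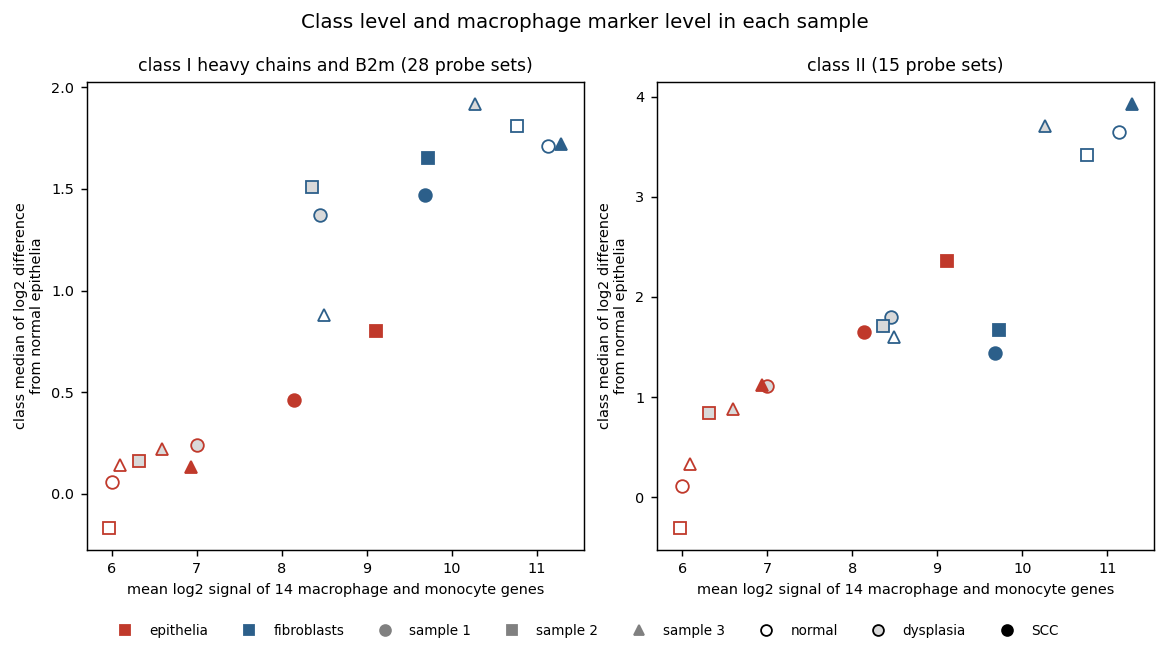
For each of the 18 samples, the mean log2 signal of 14 macrophage and monocyte genes (x axis) and the class median of the log2 difference from the mean of normal epithelia (y axis), for class I (left) and class II (right). Among SCC epithelia, sample 2 had both the highest macrophage mean, 9.11, and the highest class II median, 2.36, and sample 3 the lowest of both, 6.94 and 1.12. The class I median was likewise highest in sample 2, 0.80, and lowest in sample 3, 0.13.

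Of 16 further genes that control MHC transcription, 0 were called in dysplasia and 1, Irf1, rose in SCC epithelia. Irf1, an interferon-induced activator, was at 6.41, 5.40 and 6.59 in normal, 7.21, 7.002 and 7.48 in dysplasia and 9.16, 9.19 and 7.83 in SCC epithelia, a rise of 2.59 ± 0.41 in SCC (adjusted p = 0.00238). In the fibroblast samples Irf1 was at 11.51 to 12.72. The fibroblast gene list lay at 9.65, 11.50 and 7.56 in SCC epithelia samples 1, 2 and 3, with sample 3 the lowest for both. The part of connective tissue cells in the rise of Irf1 was not tested. Ifng, the gene of interferon gamma, lay at 1.58 to 3.07 in all 9 epithelial samples. Of 11 other processing enzymes, 2 rose and 1 fell in dysplasia and 3 rose and 1 fell in SCC epithelia. Of all probe sets, 12.6% rose and 17.3% fell in SCC epithelia, with smaller shares in dysplasia, as given above. The counts of regulators and enzymes were not tested against these shares. The lysosomal protease Ctsh rose by 2.45, Ctsz by 2.63 and the peptide trimmer Erap1 by 1.14 in SCC, and Lnpep fell by 0.58.

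In the fibroblasts, 0 of the 64 probe sets passed in dysplasia against normal, where 0.116% of all probe sets rose and 0.0548% fell in limma, and 9 had an unadjusted p under 0.05. In SCC against dysplasia fibroblasts 0 passed, where 1.52% of all rose and 0.322% fell, and again 9 had an unadjusted p under 0.05. The share of all probe sets at that unadjusted p was not counted. In SCC against normal fibroblasts 7 rose and 1 fell, 10.9% and 1.56% of them, where 7.82% of all rose and 7.43% fell. None of the 15 class II probe sets passed in any of the 3 comparisons of fibroblast stages, and at an unadjusted p under 0.05 there were also 0. Of the 8 calls in SCC against normal fibroblasts, 2 held with any 1 array left out.

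Class I probe sets, which were 28 of the 64, made up 4 of the 7 rises. RT1-A3 was at 5.82, 5.97 and 5.84 in normal, 6.39, 6.25 and 7.11 in dysplasia and 7.54, 8.01 and 6.93 in SCC fibroblasts with probe set 1371213_at. Normal samples lay below all others and dysplasia sample 3 overlapped SCC. It rose by 1.62 ± 0.29 in SCC (adjusted p = 0.012), and a second RT1-A3 probe set by 0.70 (adjusted p = 0.0305). A probe set shared by RT1-A3 and RT1-A2 (1370428_x_at) rose by 1.85 ± 0.38 (adjusted p = 0.0177), and RT1-N3 by 0.58 ± 0.14 (adjusted p = 0.0287).

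Tapbp was at 8.45, 8.43 and 8.12 in normal, 8.78, 8.78 and 9.02 in dysplasia and 9.43, 9.54 and 9.48 in SCC fibroblasts, stages that did not overlap. It rose by 1.15 ± 0.14 in SCC (adjusted p = 0.00246), beside 1.14 in epithelia. Psmb10 rose by 0.96 ± 0.19 (adjusted p = 0.0161), from samples at 9.02, 9.28 and 9.79 in SCC and 8.28, 8.48 and 8.45 in normal fibroblasts. Nlrc5 was at 6.09, 6.26 and 6.50 in SCC and 5.60, 5.63 and 4.5 in normal fibroblasts, a rise of 1.04 ± 0.28 (adjusted p = 0.0397) that was lost without any 1 of 7 of the 9 fibroblast samples. Pdia3 was the 1 gene that fell, at 7.82, 7.65 and 7.99 in SCC and 8.80, 8.75 and 8.83 in normal fibroblasts with 1392920_at, a change of -0.97 ± 0.15 (adjusted p = 0.00621). Its other probe set changed by less than its error. Tapbp and Pdia3 were the 2 calls that held with any 1 array left out. With arrays aligned on spike-in controls, which put the median change of all probe sets at 0.51 instead of -0.05 in this comparison, 21 of the 64 were called higher and 0 lower, where 19.5% of all probe sets rose and 0.557% fell, and the fall of Pdia3 was not called (adjusted p = 0.31). In SCC against dysplasia fibroblasts that alignment called 27 higher and 0 lower, where 23.1% of all rose and 0.0387% fell.

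The third fibroblast samples set the spread of class II. Cd74 was at 12.99, 12.81 and 12.17 in normal, 12.22, 12.18 and 13.23 in dysplasia and 12.11, 12.03 and 13.32 in SCC fibroblasts. RT1-Ba with 1381593_x_at was at 12.17, 12.04 and 11.41 in normal, 10.78, 10.77 and 12.63 in dysplasia and 9.53, 9.56 and 12.62 in SCC fibroblasts. Sample 3 was the lowest of the normal fibroblasts for 14 of 15 class II probe sets, the highest of the dysplasia fibroblasts for 13 and the highest of the SCC fibroblasts for 15. Over all 64 these counts were 49, 50 and 47, and of the 28 of class I 22, 18 and 15. The share of all probe sets was not counted. Macrophage and monocyte genes moved the same way, with a list mean of 8.49 in the third normal sample against 11.14 and 10.76, of 10.27 in the third dysplasia sample against 8.45 and 8.36, and of 11.29 in the third SCC sample against 9.68 and 9.72. Their part in these values was not tested.

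With the third fibroblast samples left out, a choice made after the values were seen and which leaves 2 samples a group, 2 of the 64 rose and 20 fell in dysplasia against normal fibroblasts, where 12.5% of all probe sets rose and 14% fell. The 20 included 11 of the 15 class II probe sets, with Ctss lower by 3.19, RT1-DMb by 1.96 and RT1-Bb by 1.66. In the same samples the macrophage and monocyte list lay at 8.45 and 8.36 in dysplasia and 11.14 and 10.76 in normal fibroblasts, and Cd68 at 7.32 and 7.29 in dysplasia and 11.97 and 11.67 in normal fibroblasts. The part of macrophages in the falls was not tested. In SCC against normal fibroblasts 13 rose and 24 fell, where 20.1% of all rose and 22.2% fell. Of class II 10 fell and 0 rose. RT1-Bb was lower by 2.80 and 2 RT1-Ba probe sets by 2.56 and 2.41, while RT1-Da was lower by 0.57 and Cd74 by 0.83. Class I divided: RT1-A3, RT1-A and RT1-CE5 were among 9 probe sets called higher, and RT1-CE10, RT1-CE12, RT1-CE16, RT1-S3 and B2m among 10 called lower. In SCC against dysplasia fibroblasts 13 rose and 3 fell, where 8.81% of all rose and 7.36% fell, and class II went both ways: RT1-Bb and 2 RT1-Ba probe sets fell, and Ctss (1.68), RT1-DMa (0.97) and Ciita (0.43) rose.

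Most of the differences called between the layers were lower in epithelia at each stage, except in dysplasia with spike-in alignment, where more were higher. In normal epithelia against normal fibroblasts 3 of the 64 were higher and 44 lower, where 35.7% of all probe sets were higher and 27.7% lower. In dysplasia 2 were higher and 26 lower, where 27.4% of all were higher and 23.0% lower, and in SCC 0 were higher and 24 lower, where 18.1% of all were higher and 20.1% lower. Among the 15 class II probe sets, normal epithelia had 12 called lower (median difference -2.78), dysplasia epithelia 4 (-1.33) and SCC epithelia 1 (-0.50). Among the 28 of class I, 19, 13 and 16 were lower at the same 3 stages, with medians of -1.54, -0.75 and -0.99. Ptprc and macrophage genes differed the same way. The difference of Ptprc was -5.64, -3.15 and -2.94. Of the 14 macrophage and monocyte genes 13, 10 and 7 were called lower, with list medians of -4.03, -2.19 and -2.13. Other leukocyte lists did not share this at every stage. Of 13 T and NK cell genes 5, 0 and 0 were higher and 0, 3 and 1 lower. Of 5 B cell genes 4, 1 and 1 were higher and 0, 0 and 1 lower. Of 7 dendritic and Langerhans cell genes 3, 2 and 1 were higher and 3, 3 and 3 lower. The part of leukocytes in the differences was not tested.

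Psmb8 was lower in epithelia by 4.73 in normal, 2.44 in dysplasia and 1.78 in SCC tissue, and was at 10.38, 10.35 and 9.63 in normal fibroblasts and 10.17, 10.31 and 11.42 in SCC fibroblasts. For Cd74 the differences were -3.85, -1.63 and -0.87, the last not called. B2m (1371440_at) was lower by 3.56, 2.55 and 1.99. RT1-T24-3 was lower by 4.34, 3.43 and 2.44, and the 4 RT1-S3 probe sets were lower at every stage. Higher in normal epithelia were RT1-N2, 1 RT1-A3 probe set and the probe set of RT1-M6-1 and RT1-M4, all dim. The split depended on how arrays were scaled. With spike-in alignment, which put the median difference of all probe sets at 0.94, 1.19 and 0.39 at the 3 stages instead of 0.15, 0.10 and 0.06, 17 of the 64 were higher and 26 lower in normal epithelia, where 65.2% of all were higher and 12.5% lower. In dysplasia epithelia 27 were then higher and 10 lower, where 77.6% of all were higher and 7.07% lower, and in SCC epithelia 4 were higher and 18 lower, where 28.2% of all were higher and 10.4% lower. Among calls, the sign turned for Tapbp, 1 RT1-Bb and 2 Canx probe sets in normal tissue, and for Psme2, Tapbp, RT1-A, Psmb10 and Cd86 in dysplasia.

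Whether a change differed between the layers was tested as the change in epithelia minus that in fibroblasts. The labels do not say whether epithelia and fibroblasts of the same number share animals, and the tests between layers treat them as independent. For dysplasia against normal, 2 of the 64 had a higher change in epithelia and 0 a lower one, where 1.93% of all probe sets were higher and 2.20% lower. They were Psmb8 (2.30 ± 0.54, adjusted p = 0.0298) and Pdia3 (1.05 ± 0.24, adjusted p = 0.0272). These calls were lost in 9 (Psmb8) and 6 (Pdia3) of the fits without 1 array. For SCC against dysplasia 0 passed either way, where 0.0387% of all were higher and 0.612% lower. At an unadjusted p under 0.05 there were 3, with the share of all probe sets not counted. For SCC against normal, 14 had a higher change in epithelia and 2 a lower one, where 7.12% of all were higher and 9.39% lower, and 7 of these 16 held with any 1 array left out. With spike-in alignment 8 were higher and 5 lower in that last test, where 1.92% of all were higher and 15.6% lower, and for SCC against dysplasia 0 were higher and 11 lower, where 0.0515% of all were higher and 30.3% lower. With the third fibroblast samples left out, 21 were higher and 0 lower for dysplasia against normal, where 5.38% of all were higher and 6.57% lower. For SCC against dysplasia 0 were then higher and 1 lower, where 0.892% of all were higher and 2.29% lower, and for SCC against normal 27 were higher and 2 lower, where 12.1% of all were higher and 15.6% lower.

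Of class II, 5 of 15 had a higher change in SCC epithelia than in SCC fibroblasts, each against normal: RT1-Bb by 4.94 ± 1.34 (adjusted p = 0.0211), 2 RT1-Ba probe sets by 3.72 and 3.12, Cd74 by 2.99 ± 0.71 (adjusted p = 0.0112) and RT1-Da by 2.37 ± 0.69 (adjusted p = 0.0291). Of these, only the call of Cd74 held with any 1 array left out. Those of RT1-Bb, RT1-Ba and RT1-Da were lost in 2 to 8 of the fits without 1 array. Psmb8 differed by 2.95 ± 0.54 (adjusted p = 0.00247), Pdia3 by 2.07 ± 0.24 (adjusted p = 9.97e-05, 1392920_at) and the 2 B2m probe sets by 1.57 and 0.77. The smaller B2m difference was lost in 14 of the fits without 1 array. The brighter Pdia3 probe set differed by 0.32 and was not called (adjusted p = 0.256). The 2 with a lower change in epithelia were both of RT1-A3, by -1.47 and -0.80. Tapbp, called higher in SCC in both layers, was not among the 16.

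The genes share a place as well as a task. Of the 44 genes named, 43 were found in RefSeq, and 29 of them lie on chromosome 20 of GRCr8 between bases 1329227 and 4967958, where Psmb8, Psmb9, Tap1, Tap2 and Tapbp sit among the RT1 genes. Of 42 probe sets of genes on chromosome 20, 20 rose in SCC against normal epithelia, and of 21 probe sets of genes elsewhere, among them B2m, Cd74, Psmb10, Psme1 and Ctss, 11 rose, where 12.6% of all probe sets rose.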

How the data were processed

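RNA of 18 samples was hybridised to Affymetrix rat expression arrays, 1 array a sample. The authors deposited linear intensity values, 1 per probe set and array, with a lowest value of 1. RMA, run in Affymetrix Expression Console, is what the notes of the submitters give for their processing; the sources used here give no version of either. RMA usually includes quantile normalization, yet the median log2 value of an array lay between 6.53 and 6.86 in the deposited values, so that the arrays did not share 1 distribution. The intensities were taken to log2, 57 control probe sets were left out and 31042 were tested.

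Stages were compared within each cell type in a fit of its 9 arrays, and the layers and the differences between them in a fit of all 18 arrays, in limma 3.58.1 (R 4.3.3) with Benjamini-Hochberg adjustment over all 31042 probe sets. With 3 samples a group, the smallest p of an exact permutation test is 0.1, and none was used. Fits were tested on simulated data. The members, gene lists and tests were chosen with earlier results of these data known. Values per sample are given for the 5 probe sets of each class with the smallest p over the stages in either cell type and for B2m, Cd74, Ciita, Nlrc5, Psmb8 and Tap1; for Ptprc, Irf1 and samples that stand apart they are given as well. Where a gene had several probe sets, the brightest over all arrays stood for it in counts of genes. Promoters and positions came from RefSeq tables of build GRCr8.

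Sample numbers were checked as pairs: in fibroblasts of SCC and dysplasia the deviations of same-numbered samples correlated at 0.321 to 0.592, and in the other 5 pairs of stages at least 1 correlation was under 0.1. The alternatives were quantile normalization, alignment on 9 spike-in probe sets, a filter that kept mean log2 signals over 7, a trended robust fit, 1 fit of all 18 arrays, a replicate block, a block of same-numbered epithelia and fibroblasts, the methods' Student test of each pair of stages, a 2-fold threshold, and leaving out each array.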

Additional observations from a re-analysis of the deposited data

Results flagged for a closer look

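The results here are those where the test of the difference itself found unlike changes in the 2 cell types, given as the log2 change in epithelia minus that in fibroblasts with a limma adjusted p under 0.05. For dysplasia against normal they were Psmb8 (2.295) and Pdia3 (1.045, 1392920_at).

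For SCC against normal, the change was higher in epithelia for the class II genes RT1-Bb (4.942), RT1-Ba (3.716 and 3.119 with 2 probe sets), Cd74 (2.988) and RT1-Da (2.370). It was also higher for Psmb8 (2.954), Pdia3 (2.073 with 1392920_at; 0.32 and not called with the brighter probe set), B2m (1.570 and 0.770), RT1-CE10 (1.490), RT1-CE12 (1.466), RT1-CE16 (1.161), Cd1d1 (0.944) and Canx (0.589, 1371686_at). It was lower in epithelia for 2 probe sets of RT1-A3 (-1.471 and -0.802). Of the class II calls, only that of Cd74 held with any 1 array left out.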

How the results depend on the processing

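Across all alternatives the 172 called member values gave 3454 values with the same direction and call, 388 with the same direction and no call, and 9 with the opposite direction. All 9 came from alignment on spike-in controls in epithelia against fibroblasts: Tapbp 0.10, RT1-Bb 0.179 (1371065_at) and Canx 0.221 and 0.453 in normal tissue, and Psme2 0.189, Tapbp 0.651, RT1-A 0.085, Psmb10 0.268 and Cd86 0.148 in dysplasia.

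Of the 64, dysplasia against normal epithelia had 16 calls, 9 with the replicate block and 5 with the methods' test, and SCC against normal epithelia had 31 and 7 with the methods' test. SCC against normal fibroblasts had 8 calls, 3 with the methods' test and 21 with spike-in alignment. SCC against dysplasia had 0 calls in both layers; with a 2-fold threshold at an unadjusted p it had 2 in epithelia and 2 in fibroblasts, where a mean log2 signal above 7 and 1 fit of all 18 arrays gave 1 each and spike-in alignment 27. For the differences between layers, spike-in alignment gave 1 for dysplasia against normal (2 before) and 11 for SCC against dysplasia (0 before), where quantile normalization gave 1. The replicate block moved no other count by over 1.5 times. A second block, also chosen after seeing the data, paired epithelia and fibroblasts of the same number within a stage. It gave 0 calls for the difference between layers in dysplasia against normal (17 at an unadjusted p under 0.05) and 5 in SCC against normal (16 before), all 5 shared. Deviations of such pairs correlated at -0.306 to 0.122, so that the numbers were not shown to pair the layers.

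With the third sample of each fibroblast group left out, a choice made after seeing the data, calls were 22 in dysplasia against normal, 16 in SCC against dysplasia and 37 in SCC against normal fibroblasts. For the differences between layers they were 21, 1 and 29 in the same order of stages.

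Leaving out each array in turn gave 4 to 23 calls in dysplasia against normal epithelia (4 without dysplasia epithelia sample 3), 0 to 2 in SCC against dysplasia epithelia, 0 to 1 in SCC against dysplasia fibroblasts and 3 to 15 in SCC against normal fibroblasts (3 without SCC fibroblasts sample 1, 15 without sample 3). For the differences between layers it gave 0 to 4, 0 to 1 and 7 to 22 (7 without SCC fibroblasts sample 1, 22 without normal fibroblasts sample 3). The causes were not tested. Shares of all probe sets were not counted for the fits without 1 array or with the replicate block. The number of arrays limits the precision, and 17 of the 64 probe sets had a mean log2 signal at or under 7, where signals are dim.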
